A study of Mus musculus with 8 samples.

Results

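The genes described here are 10 surface, chemokine and enzyme genes by which lymph node stromal cells are commonly recognised: Pdpn, Thy1, Ly6a, Pdgfra, Pdgfrb, Vcam1, Icam1, Ltbr, Cxcl12 and Enpp2. Every non-control probe carrying one of these gene names was taken, which gave 18 probes of the 41174 on the array. The probes were taken by gene name, and the set of genes was chosen with earlier results of these data known. They were followed in cultured lymph node stromal cells (LNSC) of BALB/c mice after siRNA against Eif4g3, the gene of a scaffold protein of the translation initiation machinery. Cells received 400 pmol of Eif4g3 siRNA or control siRNA by lipofection and were collected after 48 h. Total RNA of the lysate and RNA of the pooled heavy polysome fractions of a sucrose gradient, where mRNAs carry many ribosomes, were each measured on 4 Agilent 2-colour arrays. Each of the 8 arrays compared both siRNAs within a fraction, with Eif4g3 siRNA RNA in Cy5 and control siRNA RNA in Cy3. The design text gives 7 plates per siRNA, with cells pooled before fractionation, and it is not stated whether the replicates are separate cultures. The p-values then measure only the spread between these samples, which may be technical. Dyes were never swapped, so within a fraction a change of a transcript and unequal labelling of its probe by dye cannot be told apart.

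Reticular fibroblasts build the scaffold of the lymph node and guide lymphocytes through it. Lymphotoxin beta receptor (Ltbr) receives lymphotoxin from lymphocytes and maintains the adhesion molecules Vcam1 and Icam1 and homeostatic chemokines on the stroma. Podoplanin (Pdpn) and Thy1 are surface glycoproteins used to sort these cells, and Ly6a (Sca-1) is a GPI-anchored surface protein of many mesenchymal cells. Pdgfra and Pdgfrb are receptor tyrosine kinases for platelet-derived growth factors. Cxcl12 is the chemokine ligand of Cxcr4, and Enpp2 (autotaxin) is a secreted enzyme that makes lysophosphatidic acid, which promotes lymphocyte movement.

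A probe was tested if 3 or more of the 4 arrays of either fraction marked it well above background in Cy3, Cy5 or both, and all 10 genes had such a probe. Of the 18 probes, 15 passed that filter, and the 3 that did not were further probes of Enpp2, Icam1 and Vcam1. Fibroblast markers were present, with 7 of 8 (Col1a1, Col1a2, Col3a1, Dcn, Fn1, Sparc and Vim) well above background in all 16 channel readings. So were 6 of 8 pericyte or smooth muscle markers (Acta2, Cnn1, Cspg4, Mcam, Myh11 and Tagln), whereas Rgs5 never was. Of 6 epithelial markers, Cdh1 never was and 0 were in all readings. Of 8 blood endothelial markers, Pecam1 and Tie1 were never above background, Vwf was in all 16 readings, and the other 5 were in some. Lyve1 and Ccl21a were never above background among 4 lymphatic endothelial markers, of which 0 were in all readings. Of 9 leukocyte and lymphocyte markers 5 never were, Ptprc among them, and 0 were in all readings. Of 4 follicular dendritic cell markers, Cr2, Cxcl13 and Fcer2a never were, whereas Mfge8, which other cells also express, was in all 16. Ccl21a and Cxcl13 are also chemokines of stroma in the intact node, and they could not be followed here. Macrophage markers were mixed: Cd14, Cd68, Lyz2 and Trem2 were above background in every reading, whereas Adgre1, Itgam, C1qa, C1qc, Tyrobp and Laptm5 never were. Eif4g3 itself, as a check of the labels, had log2 ratios (Eif4g3 siRNA over control) of -2.48, -1.81, -1.94 and -2.05 in total RNA (arrays 1 to 4) and of -3.16, -2.24, -2.43 and -1.999 in heavy polysome RNA (arrays 1 to 4). It was 4.20-fold lower in total RNA and 5.49-fold lower in heavy polysome RNA, and below 0 on all 8 arrays.

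Of the 10 genes, 5 changed in heavy polysome RNA: Ly6a and Cxcl12 were higher, and Enpp2, Pdgfra and Pdgfrb were lower. The test was limma on log2 ratios with 1 coefficient per fraction over all 8 arrays, at a Benjamini-Hochberg adjusted p under 0.05 over 14474 genes. By this rule 8.91% of all genes tested were called in heavy polysome RNA, 4.88% higher and 4.03% lower. In total RNA 0 of 10 passed the same limma test, where 4.37% of all genes did, 1.67% higher and 2.7% lower. At an unadjusted p under 0.05 the count in total RNA was 5 of 10 (2 higher and 3 lower), beside 22.1% of all genes. The median log2 ratio of the 10 genes was -0.11 in total RNA, against -0.02 in heavy polysome RNA, beside -0.04 and 0.02 over all genes tested. The count in heavy polysome RNA fell to 1 without heavy polysome array 4, to 2 without array 2 and to 3 without array 3, to 1 when that fraction was fitted alone, and to 0 with median centring of each array in place of loess. The count in total RNA rose to 3 without heavy polysome array 1 and to 3 without heavy polysome array 3.

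Heavy polysome arrays 2 and 4 resembled each other more than any other pair of arrays in a fraction. Across the genes tested, which are not independent replicates, their log2 ratios correlated at Pearson r = 0.883, against 0.159 to 0.459 for the other 5 heavy polysome pairs and 0.150 to 0.614 for the 6 total RNA pairs. It is not stated whether they are separate samples, and the heavy polysome SDs and p-values given with n = 4 count them as such. Averaged into 1 replicate, they left 1 of the 5 calls, Ly6a with a limma adjusted p of 0.0423, and over all genes the number called was 434 in place of 1290. Pdgfra (0.0549), Enpp2 (0.0675), Cxcl12 (0.0769) and Pdgfrb (0.114) kept their sign and missed the threshold. Of the other genes described as called in heavy polysome RNA, Eif4g3, Ly6c1, Ly6i, Tnfrsf1b, Trem2 and Rdx passed in that fit too, and Ly6f, Plpp3, Pik3ca, Pik3r1, Rasa1, Col1a1, Col1a2 and Cnn1 did not, at adjusted p from 0.0526 to 0.120. In total RNA, Eif4g3 and Tnfrsf1b passed in that fit, and Gnai2, Ly6c1, Cnn1, Sparc and Col1a2 did not, at 0.0572 to 0.0823.

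**Figure D1:**
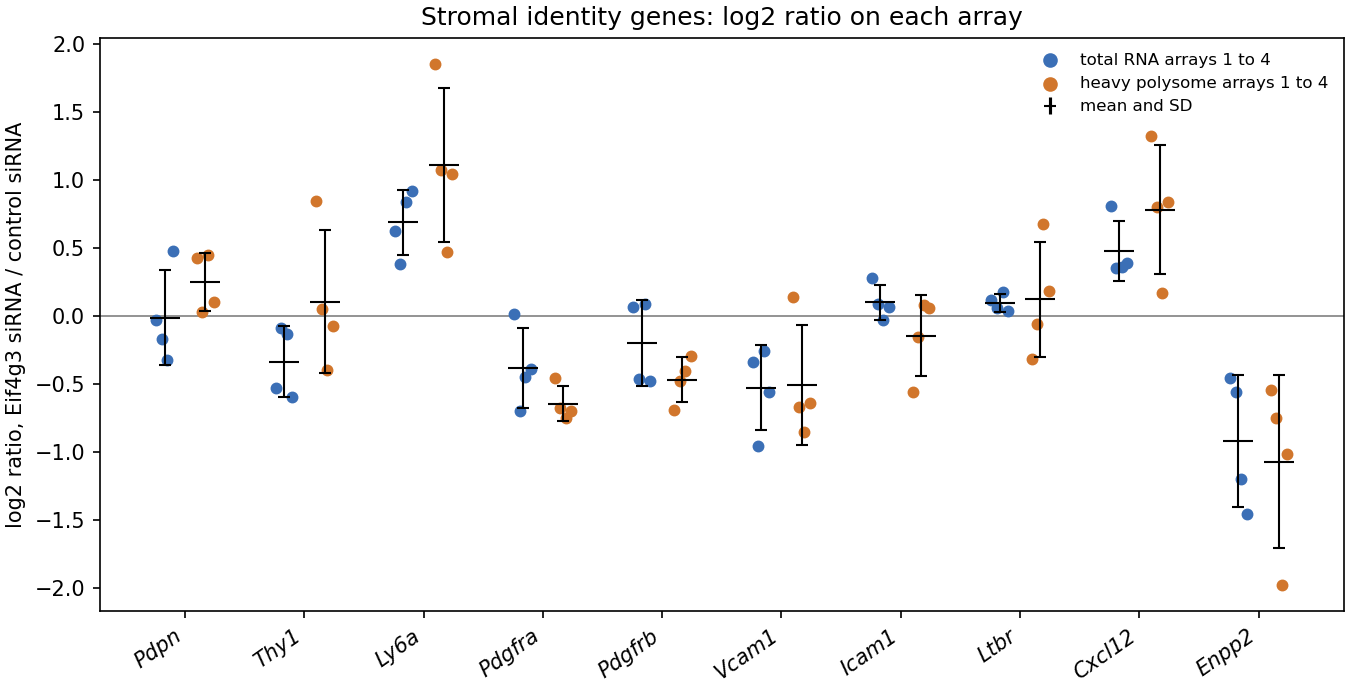
Log2 ratio of Eif4g3 siRNA over control siRNA (vertical axis) for the 10 stromal identity genes (horizontal axis), with 1 point per array, total RNA in blue and heavy polysome RNA in orange, and bars at the mean and SD of 4 arrays. Ly6a and Cxcl12 lie above 0 and Enpp2 below 0 on all 8 arrays. Pdpn, Thy1, Pdgfra, Pdgfrb, Vcam1, Icam1 and Ltbr have arrays on both sides of 0.

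Ly6a had the largest rise of the 10. Its log2 ratios were 0.62, 0.38, 0.83 and 0.92 in total RNA (arrays 1 to 4), and those of heavy polysome RNA were 1.85, 1.07, 0.47 and 1.04. All 8 values were above 0, heavy polysome array 1 was the highest, and the fractions overlapped. Of the 10 genes, Ly6a and Cxcl12 were above 0 on all 8 arrays and Enpp2 below 0 on all 8, while 14% of all genes tested lay on 1 side of 0 in either direction. The mean of 1.11 ± 0.57 (SD, n = 4) in heavy polysome RNA is 2.16-fold, with a 95% interval of 0.69 to 1.53 and a limma adjusted p of 0.00871. The mean in total RNA was 0.69 ± 0.24 (SD, n = 4), or 1.61-fold, with a limma adjusted p of 0.0675 that did not pass. Processed Cy3 signals of the control siRNA cells spanned 3699 to 12408 in total RNA, against 4449 to 12374 in heavy polysome RNA, far from the dim end. Ly6a passed in heavy polysome RNA without each of the 8 arrays in turn, with adjusted p of at most 0.0465. It missed the threshold, at 0.0571, when that fraction was fitted alone.

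Ly6a lies in a cluster of related genes on chromosome 15, and 3 of its neighbours moved with it. Among 13 tested genes of the LY6 and GPI-anchored surface protein list, 3 rose in heavy polysome RNA by the limma test and 0 fell, with a median log2 ratio of 0.31 beside 0.02 over all genes. Ly6i, Ly6c1 and Ly6f rose, each a small GPI-anchored Ly6 protein. Ly6c1 had log2 ratios of 0.26, 0.54, 0.66 and 0.78 in total RNA, below its heavy polysome values of 1.39, 0.82, 0.94 and 0.91. Every heavy polysome value lay above every total RNA value, a separation that 3.61% of all genes tested showed in either direction, but the difference between fractions, 0.45, did not pass by limma (adjusted p 0.847). In heavy polysome RNA Ly6c1 was 2.02-fold higher (adjusted p 0.0031), and in total RNA 1.48-fold higher (adjusted p 0.0339), a call that 6 of the 8 fits without 1 array lost. Those were the fits without each of the total RNA arrays and without heavy polysome array 2 or 4, at adjusted p from 0.0510 to 0.139.

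Ly6i had log2 ratios between 0.38 and 0.50 in total RNA, against 1.47, 0.74, 0.98 and 0.93 in heavy polysome RNA, with no overlap, and its difference between fractions of 0.59 did not pass by limma either (adjusted p 0.847). It was 2.05-fold higher in heavy polysome RNA, with an adjusted p of 0.00284. Ly6f had 0.07, 0.42, 0.23 and 0.30 in total RNA, against 0.36, 0.51, 0.53 and 0.64 in heavy polysome RNA, a 1.43-fold rise there with an adjusted p of 0.00969. The Ly6f call was lost without heavy polysome array 4, at 0.0635. Ly6e, on the same chromosome, had a mean of 0.56 ± 0.34 (SD, n = 4) in heavy polysome RNA with an adjusted p of 0.0587. Ly6k, also there, had -0.12 ± 0.19, and Ly6g6c and Ly6g6d on chromosome 17 had 0.01 ± 0.29 and 0.07 ± 0.23 (SD, n = 4). Ly6a, Ly6c1, Ly6f and Ly6i have closely similar sequences, so their probes may share target RNA, and these 4 values are not taken as independent. The list was put together with earlier results of these data known.

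**Figure D2:**
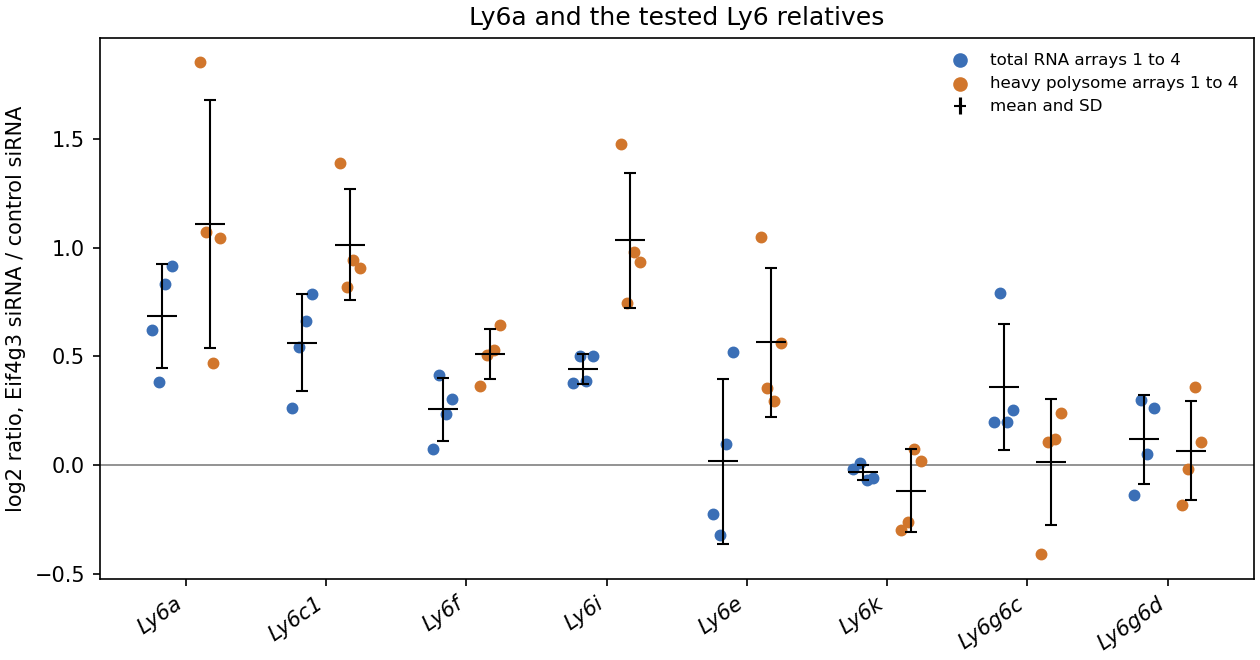
Log2 ratio of Eif4g3 siRNA over control siRNA (vertical axis) for Ly6a and the 7 other tested Ly6 genes (horizontal axis), 1 point per array, with mean and SD of 4 arrays per fraction. Ly6a, Ly6c1, Ly6f and Ly6i lie above 0 on all 8 arrays, and Ly6k, Ly6g6c and Ly6g6d lie around 0 in heavy polysome RNA.

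Cxcl12 was measured by a pair of probes whose log2 ratios had opposite signs on 7 of 8 arrays, although they were not called in opposite directions in either fraction. The brighter probe, used for the gene, lies on mm8 at chr6:117146828-117146887 and is annotated to transcript variant 3. Its log2 ratios were 0.81, 0.35, 0.36 and 0.38 in total RNA, against 1.32, 0.80, 0.17 and 0.83 in heavy polysome RNA. All 8 values were above 0. The mean in heavy polysome RNA was 0.78 ± 0.47 (SD, n = 4), or 1.72-fold, with a limma adjusted p of 0.0197, which rose to 0.0694 without heavy polysome array 2 and to 0.0866 without array 4. The call was also lost, at 0.0821, when the fraction was fitted alone. In total RNA the mean was 0.47 ± 0.22 (SD, n = 4), with an adjusted p of 0.126.

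The other Cxcl12 probe, at chr6:117140075-117140134 and annotated to transcript variant 1, lies 6753 bases upstream. Its log2 ratios were -0.63, -1.01, -1.21 and -1.56 in total RNA, against 0.70, -0.58, -1.34 and -0.68 in heavy polysome RNA. It was below 0 on 7 of 8 arrays, the exception being heavy polysome array 1. In the limma fit over 21398 probes its mean was -1.11 ± 0.39 (SD, n = 4) in total RNA with an adjusted p of 0.0542, and -0.48 ± 0.85 (SD, n = 4) in heavy polysome RNA with an adjusted p of 0.315. Both probes were well above background in both channels of all 8 arrays.

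On each array the downstream probe exceeded the upstream probe. The difference of their log2 ratios was 1.44, 1.36, 1.57 and 1.94 in total RNA, against 0.62, 1.38, 1.51 and 1.52 in heavy polysome RNA, with a mean of 1.42 ± 0.37 (SD, n = 8). With the deposited log2 ratios the mean was 1.53 ± 0.29 (SD, n = 8). The pair was noticed in the values, so no test is given. Among 5151 genes with at least 2 tested probes, 22 (0.427%) had a pair that differed the same way on all 8 arrays by a mean of at least 1. Averaging both probes gave a Cxcl12 log2 ratio of -0.32 in total RNA, against 0.15 in heavy polysome RNA, with adjusted p of 0.695 in the latter, so the rise of Cxcl12 holds for the downstream probe only. Whether dye bias of a probe contributes was not tested.

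**Figure D3:**
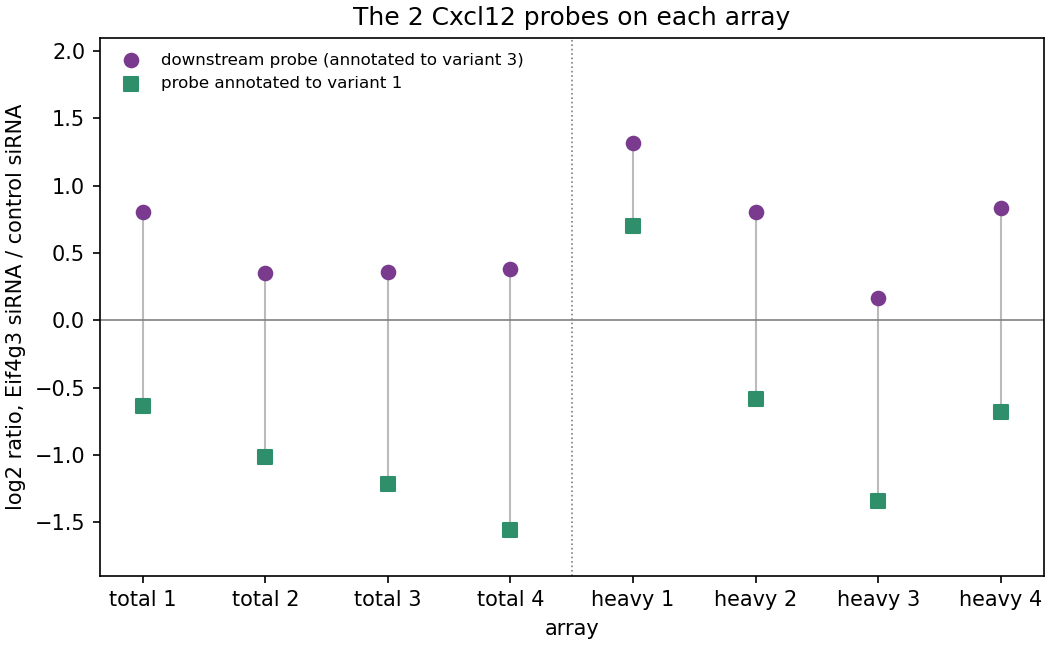
Log2 ratio of Eif4g3 siRNA over control siRNA (vertical axis) of the 2 Cxcl12 probes on each of the 8 arrays (horizontal axis), circles for the downstream probe and squares for the upstream probe, joined by a line on each array. The circle lies above the square on every array, by 0.62 on heavy polysome array 1 and by 1.94 on total RNA array 4 at the extremes.

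Partners of Cxcl12 gave few calls. Of the 5 tested genes of the CXCL12 axis, Gnai2, a G protein alpha subunit that acts below chemokine receptors, fell in total RNA, and 0 passed in heavy polysome RNA. Gnai2 had log2 ratios of -0.92, -0.54, -0.37 and -1.07 in total RNA, against 0.21, 0.02, -0.56 and -0.07 in heavy polysome RNA. It was 1.65-fold lower in total RNA with a limma adjusted p of 0.0294. That call was lost in 6 of the 8 fits without 1 array (each total RNA array, and heavy polysome arrays 2 and 4), at adjusted p from 0.0534 to 0.110. The difference between fractions for Gnai2 was 0.62, with an adjusted p of 0.847.

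Enpp2 fell the most of the 10. The probe at chr15:54669137-54669194 (mm8) had log2 ratios of -0.46, -0.57, -1.20 and -1.46 in total RNA, against -0.54, -0.75, -1.98 and -1.02 in heavy polysome RNA. All 8 were below 0, and heavy polysome array 3 was the lowest. The means were -0.92 ± 0.49 in total RNA, against -1.07 ± 0.64 in heavy polysome RNA (SD, n = 4 each), 1.90-fold and 2.11-fold lower. The limma adjusted p was 0.0572 in total RNA, against 0.0233 in heavy polysome RNA. The heavy polysome call was lost without heavy polysome array 2, 3 or 4, at adjusted p from 0.0532 to 0.0867, and with no filter on dim probes, at 0.0504. In total RNA the gene passed with the deposited log2 ratios at 0.0227, without heavy polysome array 1 at 0.0376 and without heavy polysome array 3 at 0.0228. Processed Cy3 signals of the control siRNA cells spanned 224 to 628 in total RNA, against 580 to 1172 in heavy polysome RNA. Of the 11 tested genes of the autotaxin and lysophosphatidic acid axis, 1 fell in heavy polysome RNA and 0 passed in total RNA. That gene was Plpp3, a lipid phosphate phosphatase that degrades lysophosphatidic acid, at -1.77, -0.58, -0.54 and -0.44 in heavy polysome RNA, 1.78-fold lower with an adjusted p of 0.0300. In total RNA Plpp3 was at -0.75, -0.52, -0.56 and -0.92, 1.61-fold lower with a limma adjusted p of 0.0784. Leaving out array 2 or 3 of total RNA, or array 2 or 4 of heavy polysome RNA, removed its heavy polysome call, at 0.0534 to 0.0664.

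Pdgfra fell evenly in heavy polysome RNA. Its log2 ratios were -0.46, -0.68, -0.75 and -0.70 there and 0.01, -0.70, -0.45 and -0.39 in total RNA. Only total RNA array 1 lacked the decrease. The mean in heavy polysome RNA was -0.65 ± 0.13 (SD, n = 4), 1.57-fold lower, with a limma adjusted p of 0.0109, and in total RNA -0.38 ± 0.30 (SD, n = 4), with an adjusted p of 0.0913. The call was lost without heavy polysome array 4, at 0.0608. The array carries this probe (chr5:75479560-75479619, mm8) in 10 spots, of which 6 to 10 per array were kept. The SD among spots of an array was between 0.05 and 0.24. All kept spots were below 0 on every array but total RNA array 1, where they ran from -0.05 to 0.15. The other Pdgfra probe was above background on 5 of 8 arrays in Cy3 and had means of -0.06 ± 0.14 and 0.06 ± 0.20 (SD, n = 4 each) in total and heavy polysome RNA.

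Pdgfrb fell less. It had log2 ratios of 0.06, -0.47, 0.09 and -0.48 in total RNA, against -0.69, -0.48, -0.41 and -0.30 in heavy polysome RNA. The 4 heavy polysome values were all below 0 and the total RNA values were on both sides. The mean in heavy polysome RNA was -0.47 ± 0.17 (SD, n = 4), 1.38-fold lower, with a limma adjusted p of 0.0452. It was lost in 6 of the 8 fits without 1 array (all but those without total RNA array 1 or 4), at 0.0572 to 0.131, and at 0.0843 with the deposited log2 ratios. In total RNA the mean was -0.20 ± 0.32 (SD, n = 4), with an adjusted p of 0.38.

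Among the 15 tested genes of the PDGF pathway, 3 fell in heavy polysome RNA and 0 rose, while 0 passed in total RNA. The list's median log2 ratio in heavy polysome RNA was 0.10, beside 0.02 over all genes, although its calls were all lower. Pik3ca and Pik3r1, the catalytic and regulatory subunits of phosphoinositide 3-kinase, were 1.77-fold and 1.42-fold lower in heavy polysome RNA, with limma adjusted p of 0.0225 and 0.0468. Rasa1, a GTPase-activating protein for Ras that binds activated PDGF receptors, was 1.32-fold lower with an adjusted p of 0.0345. In total RNA the means of Pik3ca, Pik3r1 and Rasa1 were -0.63, -0.26 and -0.39, with limma adjusted p of 0.0784, 0.298 and 0.0542. Pik3ca lost its call without heavy polysome array 2 or 4 (0.0581 to 0.0714). Rasa1 lost it in 5 of 8 such fits (leaving out total RNA arrays 2 and 3 and heavy polysome arrays 1, 2 and 4) at up to 0.128. Pik3r1 lost it in 7 of 8 (all but the fit without total RNA array 4) at up to 0.164. Averaging all tested probes of a gene moved Pik3ca to -0.41 and Pik3r1 to -0.22 on the log2 scale, with adjusted p of 0.128 and 0.23.

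Of 7 tested fibroblast markers, 2 fell in each fraction and 0 rose by the limma test, with medians of -0.46 in total RNA, against -0.42 in heavy polysome RNA. Over all genes tested the medians were -0.04 and 0.02, and limma called 2.7% lower in total RNA and 4.03% lower in heavy polysome RNA. Col1a1, a type I collagen chain, was 1.59-fold lower in heavy polysome RNA (adjusted p 0.0229), a call lost without heavy polysome array 1, 2 or 4 (up to 0.0881). Its mean in total RNA was -0.34 ± 0.27 (SD, n = 4), with a limma adjusted p of 0.207. Averaging all its tested probes gave a log2 ratio of -0.41 in heavy polysome RNA, with a limma adjusted p of 0.0916. Col1a2, the other chain, was 1.34-fold lower there (adjusted p 0.0462) and 1.38-fold lower in total RNA (adjusted p 0.0493), and most fits without 1 array lost these calls (7 and 6 of 8). Sparc, a matrix glycoprotein, was at -0.65, -0.34, -0.45 and -0.76 in total RNA, where it fell (adjusted p 0.0494, lost in 6 of the 8 fits without 1 array), and had a mean of -0.27 ± 0.35 (SD, n = 4) in heavy polysome RNA. Dcn, Col3a1 and Fn1 did not pass, with means of -0.96 ± 0.73, -0.49 ± 0.52 and -0.11 ± 0.64 (SD, n = 4 each) in heavy polysome RNA. Vim, an intermediate filament gene, lay on the other side of 0 on all 8 arrays, with means of 0.71 ± 0.35 and 0.55 ± 0.48 (SD, n = 4 each) in total and heavy polysome RNA and limma adjusted p of 0.0574 and 0.0949. Of 7 tested pericyte or smooth muscle markers, 1 rose in each fraction and 0 fell, with medians of 0.08 and 0.27. It was Cnn1, a calponin of smooth muscle, 1.35-fold higher in total RNA and 1.31-fold higher in heavy polysome RNA (limma adjusted p 0.0388 and 0.0352), calls lost in 6 and 5 of the 8 fits without 1 array. The 8 pericyte or smooth muscle markers summed to processed signals of 277695 to 600120 in Cy3 and 319520 to 612643 in Cy5 in total RNA, and of 193995 to 468598 in Cy3 and 258107 to 572194 in Cy5 in heavy polysome RNA. Summed processed signals of the 8 fibroblast markers in total RNA ran from 290056 to 439550 in the control siRNA channel and from 215616 to 363591 in the Eif4g3 siRNA channel. The summed Cy3 range in heavy polysome RNA was 221144 to 498887 and the Cy5 range 222447 to 379087. In RNA from whole cultures, fewer cells of a type and less RNA per cell cannot be told apart, and the part of cell composition in the changes was not tested. Of the 20 tested genes of the wider reticular stromal list, Col1a1 and Col1a2 were the only ones called in either fraction by this limma test.

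Of the adhesion molecules, Vcam1, the ligand of the integrin VLA-4, was below 0 on 7 of 8 arrays without passing the test. Its log2 ratios were -0.34, -0.96, -0.26 and -0.56 in total RNA, against 0.14, -0.67, -0.85 and -0.64 in heavy polysome RNA. The means were -0.53 ± 0.31 and -0.51 ± 0.44 (SD, n = 4 each), with limma adjusted p of 0.102 and 0.0938. Heavy polysome array 1 stood on the other side of 0, and without it Vcam1 passed in both fractions, at 0.0314 in total RNA, against 0.0180 in heavy polysome RNA. Another tested Vcam1 probe had means of -0.09 ± 0.08 and -0.20 ± 0.15 (SD, n = 4 each). Icam1, the ligand of the integrin LFA-1, had log2 ratios of 0.28, 0.09, -0.03 and 0.06 in total RNA, against -0.56, -0.16, 0.08 and 0.06 in heavy polysome RNA, and did not pass. It was dim, at 31 to 141 processed Cy3 units in total RNA. None of the 13 tested ligands and relatives of VCAM1 and ICAM1 passed in either fraction by limma at the adjusted threshold.

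The sorting markers and the lymphotoxin receptor did not pass in either fraction. Pdpn had log2 ratios of -0.03, -0.17, -0.33 and 0.47 in total RNA, against 0.42, 0.03, 0.44 and 0.10 in heavy polysome RNA, where all 4 were above 0. Its mean in heavy polysome RNA was 0.25 ± 0.21 (SD, n = 4) with a 95% interval of -0.05 to 0.55, and the other Pdpn probe gave 0.36 ± 0.15 (SD, n = 4) with a limma adjusted p of 0.0955 over all probes. Thy1 had -0.53, -0.09, -0.13 and -0.60 in total RNA, against 0.84, 0.05, -0.40 and -0.07 in heavy polysome RNA. Its other probe gave -0.47, 0.30, -0.04 and 0.32, and then -0.39, 0.12, 0.64 and 0.04, so the probes differed in sign on several arrays. Ltbr had 0.11, 0.05, 0.17 and 0.03 in total RNA, where the mean of 0.09 ± 0.06 (SD, n = 4) has a 95% interval of -0.22 to 0.41, and -0.32, -0.06, 0.67 and 0.18 in heavy polysome RNA.

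Of the 16 tested genes of the lymphotoxin beta receptor pathway list, 1 was called, Tnfrsf1b, and it fell in both fractions. The other genes of the list, among them Traf2, Traf3, Map3k14, Nfkb2 and Relb, did not pass in either fraction. Tnfrsf1b, a receptor for tumour necrosis factor and soluble lymphotoxin, had log2 ratios of -0.37, -0.62, -0.89 and -1.21 in total RNA, against -1.07, -0.92, -0.996 and -0.89 in heavy polysome RNA. By limma it was 1.71-fold lower in total RNA with an adjusted p of 0.0146, and in heavy polysome RNA 1.96-fold lower with 0.00392. The heavy polysome call held without each of the 8 arrays in turn, and the total RNA call was lost without total RNA array 2 or 3, at 0.0557 to 0.0808. Trem2, a receptor of macrophages, was 2.62-fold lower in heavy polysome RNA (adjusted p 0.0165), the single call among 6 tested macrophage markers. That call was lost without heavy polysome array 4, at 0.0567, and with the fraction fitted alone, at 0.0536. In total RNA Trem2 had a mean of -0.80 ± 0.64 (SD, n = 4), with a limma adjusted p of 0.131. Summed processed signals of the 12 macrophage markers ran from 2405 to 3391 in Cy3 and from 1249 to 3309 in Cy5 in total RNA. In heavy polysome RNA they ran from 3445 to 6067 in Cy3 and from 1192 to 3631 in Cy5. The part of such cells in the decrease of Tnfrsf1b was not tested. The macrophage list's median log2 ratio was -0.65 on heavy polysome array 3 and between -0.18 and 0.04 on the other arrays. Of the 10 tested partners of podoplanin, Rdx rose in heavy polysome RNA and 0 fell. Rdx encodes radixin, which links membrane proteins to actin, and had log2 ratios of 1.47, 0.57, 1.38 and 0.83 there, a 2.09-fold rise with an adjusted p of 0.0132, lost at 0.0501 without heavy polysome array 4. Its mean in total RNA was 0.62 ± 0.50 (SD, n = 4), with a limma adjusted p of 0.106.

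Between the fractions, the changes of the 10 genes could not be told apart. The difference of the log2 ratios, heavy polysome minus total RNA, was 0.42 for Ly6a with a 95% interval of -0.17 to 1.01. For Cxcl12 it was 0.30 (-0.21 to 0.82), for Enpp2 -0.15 (-0.90 to 0.59), for Pdgfra -0.26 (-0.63 to 0.10) and for Pdgfrb -0.27 (-0.66 to 0.12). By limma 0 of 10 passed at the adjusted threshold and 0 at an unadjusted p under 0.05, beside 0% and 5.22% of all genes tested. The log2 ratios of the 2 fractions overlapped for all 10, whereas 3.61% of genes did not overlap. A call in heavy polysome RNA and none in total RNA is therefore no evidence of a difference between them, for the list genes also. As 0 of 14474 genes passed this test, it cannot show that the fractions changed alike either.

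**Figure D4:**
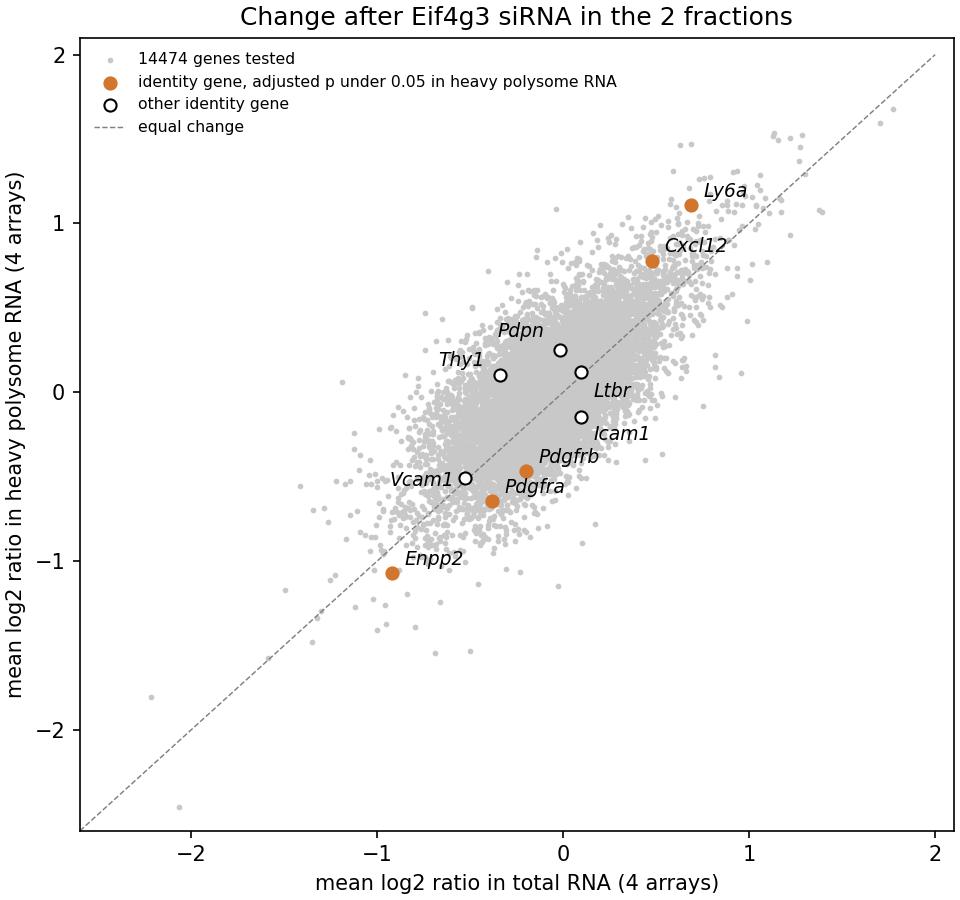
Mean log2 ratio of Eif4g3 siRNA over control siRNA in total RNA (horizontal axis) and in heavy polysome RNA (vertical axis), 4 arrays each, for the 14474 genes tested in grey and the 10 identity genes, filled where the adjusted p in heavy polysome RNA was under 0.05. Ly6a and Cxcl12 lie to the upper right, above the dashed line of equal change. Enpp2 and Pdgfra lie to the lower left, below that line.

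The level of each gene in heavy polysome RNA against total RNA was also compared within each siRNA, from normalised channel levels on the log2 scale. The 2 fractions lay on different slides, so an effect of the slide and one of the fraction cannot be told apart in this comparison. None of the 10 passed in control siRNA cells, where limma called 2.22% of genes, or in Eif4g3 siRNA cells, where it called 0.16%. At an unadjusted p under 0.05 the limma count was 1 of 10 (Ltbr) in each, beside 12.6% of all genes in each. In control siRNA cells Ltbr was at 12.81 ± 0.62 in total RNA, against 11.86 ± 0.38 in heavy polysome RNA (SD, n = 4 each). The difference of -0.95 had a 95% interval of -1.66 to -0.25 and a limma adjusted p of 0.204, and in Eif4g3 siRNA cells it was -0.93 with an interval of -1.66 to -0.20. Cxcl12 stood at 12.15 ± 0.19 and 11.82 ± 0.32 in control siRNA cells, Pdgfra at 8.76 ± 0.18 and 8.64 ± 0.12, and Enpp2 at 8.45 ± 0.29 and 8.75 ± 0.34 (SD, n = 4 each). Equal RNA mass of each sample was labelled, so these levels are relative to the RNA of their fraction.

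Genes with the most similar course over the 8 arrays were found for each called member by the root mean square difference of log2 ratios. For Ly6a these were Prpsap1, Pign and Gle1, at 0.206 to 0.237. Desi2, Tsc22d1 and Tmeff1 were nearest to Cxcl12, at 0.126 to 0.185, and Kdm7a, Prxl2a and Syt13 to Enpp2, at 0.196 to 0.265. Nbr1, Usp25 and Pxk were nearest to Pdgfra, at 0.120 to 0.156. Smarcal1, Specc1 and Col5a1, a fibrillar collagen chain, were nearest to Pdgfrb, at 0.112 to 0.117.

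Upstream sequence was at hand from RefSeq for 5 of the 10 genes, and of the called genes for Cxcl12 and Pdgfra. The 250 bases before each start site on GRCm38.p6, plus strand, are shown to compare their composition, with each match to GGGCGG, a core of the GC box, on either strand in capitals.
Cxcl12, chr6:117168285-117168534: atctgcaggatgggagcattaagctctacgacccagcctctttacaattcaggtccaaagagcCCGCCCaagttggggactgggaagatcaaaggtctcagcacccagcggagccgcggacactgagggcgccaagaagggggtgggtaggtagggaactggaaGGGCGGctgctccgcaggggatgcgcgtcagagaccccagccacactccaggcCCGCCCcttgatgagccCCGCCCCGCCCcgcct
Pdgfra, chr5:75152001-75152250: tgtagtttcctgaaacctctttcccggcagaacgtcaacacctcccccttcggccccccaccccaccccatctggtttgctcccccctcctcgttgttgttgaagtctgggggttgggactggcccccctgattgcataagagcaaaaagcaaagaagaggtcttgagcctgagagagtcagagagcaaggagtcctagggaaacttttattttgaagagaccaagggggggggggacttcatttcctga
The Cxcl12 window has a GC content of 64.4% and 5 matches, of which a pair near the start site shares a base, and the Pdgfra window has 54.4% and 0 matches. Among the genes not called, the windows held 2 matches for Ltbr, 1 for Icam1 and 0 for Pdpn. Of 27025 windows of this length, 32.9% held at least 1 match. A link between these letters and the changes was not tested. The TATA-like letters TATAAA, searched on both strands, were in neither window and in 13.0% of all windows. RefSeq gives 1 start window for Cxcl12, so these letters do not separate the transcripts of its probes.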

How the data were processed

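Per the file headers, the authors' scanner tables came from Agilent Feature Extraction 10.7.3.1 (protocol GE2_107_Sep09), except total RNA array 2 (10.5.1.1, GE2_105_Dec08), and hold spot signals as intensity and a log10 ratio, Cy5 over Cy3, per spot. Probe coordinates are on mm8. The authors also deposited log2 ratios in 1 table, checked to be Cy5 over Cy3. Background was removed from mean signals by normexp (offset 50, local medians), and log2 ratios were normalised within arrays by loess (span 0.3), leaving out 131 to 241 outlier spots per array. No spot was saturated. Arrays lay on 5 slides, 3 with total RNA and 2 with heavy polysome RNA. Spots of a probe were averaged, and the brightest probe stood for a gene. Current symbols came from RefSeq records of GRCm38.p6, matching 33026 of 41174 probes (80.2%). Genes well above background in either channel on at least 3 of 4 arrays of a fraction were tested with limma 3.58.1 in R 4.3.3 (lmFit, eBayes, two-sided, Benjamini-Hochberg over 14474 genes, threshold 0.05). A check on simulated data drew every array independently. As heavy polysome arrays 2 and 4 resemble each other, it does not give the error rate in these data. Channel levels used loess and Aquantile. The number of arrays limits the precision. Alternatives were the deposited log2 ratios, median centring, no background correction, no filter, the mean of all probes, each fraction alone, slide and replicate blocks, heavy polysome arrays 2 and 4 as 1 sample, processed signals scaled to the 75th percentile, and leaving out each array. Text names all members, list genes past the threshold (at most 4 per list and comparison) with partners, and the 3 nearest genes. The members and lists were chosen with earlier results of these data known. The difference of the Cxcl12 probes was added after seeing the data.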

Additional observations from a re-analysis of the deposited data

Results flagged for a closer look

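The Cxcl12 log2 ratio of the downstream probe on total RNA array 1 was 0.81, while the other 3 total RNA arrays lay between 0.35 and 0.38. The gap was 0.923 of the range, above Dixon's critical value for 4 samples. Of 30 groups of 4 arrays looked at, this was the only one past it, and chance gives about 1 in 20.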

How the results depend on the processing

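The count of stromal identity genes called in total RNA, 0, was 2 with the deposited log2 ratios (Enpp2 and Ly6a), with that fraction fitted alone and with slide as a random block, and 1 with no background correction. In heavy polysome RNA the count of 5 was 0 with median centring, 3 with no filter on dim probes, and 1 both with each fraction fitted alone and with arrays 2 and 4 taken as 1 replicate. Leaving out 1 array gave 0 to 3 (total RNA) and 1 to 5 (heavy polysome RNA). The difference between fractions and both comparisons of heavy polysome with total RNA kept 0 of 10 under every alternative run, and Ly6a, Cxcl12, Enpp2, Pdgfra and Pdgfrb kept their direction in heavy polysome RNA. Over all genes, limma called 633 (total RNA) and 1290 (heavy polysome RNA). These counts were 1451 and 2051 with the deposited log2 ratios, 1474 and 2595 with slide as a block, 0 and 0 with median centring, 692 and 382 with each fraction alone, and 297 and 434 with arrays 2 and 4 as 1 replicate. Leaving out 1 array gave 46 to 1324 and 337 to 1537. In total RNA 242 of the called genes were higher and 391 lower, and with the deposited log2 ratios 793 and 658.

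No pairing of samples by replicate number was seen. Deviations of same-numbered arrays correlated at -0.02, 0.17, -0.11 and -0.30, and 1 of 4 total RNA arrays correlated best with its own number. The labels do not say what a shared number means, and these correlations cannot show that the samples were unpaired. With the replicate block the count was 1 in total RNA (Enpp2), against 4 in heavy polysome RNA, and 210 and 585 over all genes.

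Median centring moved the median of all genes in total RNA to -0.78. Under it the total RNA log2 ratio was -0.15 for Icam1, -0.82 for Ltbr, -0.46 for Cxcl12, -0.23 for Ly6a, -0.32 for Ly6c1, -0.42 for Ly6i, -0.00878 for Ly6f, -0.41 for Cnn1 and -0.30 for Rdx, all opposite in sign to the loess value. Relative to that median, Cxcl12 was at 0.32, Ly6a at 0.55 and Ly6c1 at 0.46, the sign of their loess values. Icam1 at 0.63, Ly6i at 0.36, Ly6f at 0.77, Cnn1 at 0.37 and Rdx at 0.48 also kept that sign relative to it. Ltbr, at -0.042 relative to it, did not. Icam1 in heavy polysome RNA was 0.045. The difference between fractions under median centring was 0.51 for Pdgfra, 0.68 for Pdgfrb, 0.19 for Icam1 and 0.55 for Enpp2. Relative to the median difference of all genes, these were -0.28, -0.11, -0.59 and -0.24, below 0 as with loess. Pdpn in total RNA was 0.036 with the deposited ratios, 0.00801 with the mean of all probes and 0.022 with the slide block. The mean of all probes gave -0.32 for Cxcl12 in total RNA and a difference between fractions of -0.044 for Vcam1. With the deposited ratios that difference was -0.20 for Vcam1 and -0.026 for Ltbr, and Gnai2 in heavy polysome RNA was 0.016. Thy1 in heavy polysome over total RNA of Eif4g3 siRNA cells was -0.36 with processed signals scaled to the 75th percentile. The cause of these reversals was not tested.

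Leaving out 1 array turned the sign of 15 uncalled values. Pdpn in total RNA ran from -0.18 to 0.090. In heavy polysome RNA the values ran from -0.14 to 0.27 for Thy1, -0.065 to 0.27 for Ltbr and -0.20 to 0.051 for Gnai2. The difference between fractions ran from -0.19 to 0.14 for Vcam1, -0.16 to 0.17 for Ltbr and -0.33 to 0.15 for Enpp2. Heavy polysome over total RNA in control siRNA cells ran from -0.31 to 0.16 for Vcam1 and -0.45 to 0.17 for Ly6a. In Eif4g3 siRNA cells it ran from -0.25 to 0.17 for Pdgfrb, -0.19 to 0.25 for Vcam1, -0.022 to 0.60 for Icam1, -0.17 to 0.16 for Cxcl12, -0.10 to 0.36 for Enpp2 and -0.085 to 0.72 for Ly6a. The difference of the Cxcl12 probes stayed between 1.34 and 1.53. Signals near background limit Icam1, the other Pdgfra probe and the 3 untested probes.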
